A study of Mus musculus with 12 samples.

Results

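A set of 9 genes of the B cell lineage were followed through MLL-AF9 acute myeloid leukemia of the mouse, a model in which a fusion oncogene turns blood progenitors into leukemia: Ighm, Cd79a, Cd79b, Igll1, Vpreb1, Vpreb3, Ebf1, Pax5 and Blnk. They were chosen by name, as 9 of 22180 genes measured on 12 one-colour expression arrays, and each was read from the probe set that the platform annotation assigns to that symbol alone; where a gene had several, the one with the highest mean over the 12 arrays was used. There were 4 groups of 3 arrays: L-GMP cells of AMPKΔ/Δ leukemia (KO), L-GMP cells of AMPKfl/fl leukemia (WT), whole leukemia cells of AMPKΔ/Δ leukemia and whole leukemia cells of AMPKfl/fl leukemia. AMPK is a kinase that responds to low cellular energy, and the WT cells carry the floxed alleles that are deleted in the KO cells. All mice were C57BL/6J, all leukemias carried MLL-AF9, and every recipient was irradiated with 10 Gy and given 50000 MLL-AF9 expressing progenitor and stem cells. Marrow was collected when each recipient developed leukemia, and 5000 cells were sorted for each array. Whole leukemia cells were sorted on GFP alone, and L-GMP cells (leukemic granulocyte-macrophage progenitors) on GFP together with absence of lineage markers and presence of c-Kit, CD34 and the Fc gamma receptors II and III. The labels do not name the lineage antigens, the Cre or the age of the recipients, and they do not say whether the arrays of a group are separate animals. The p-values therefore set each difference only against the spread among these samples, which may in part be technical.

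B cells are made in the marrow by a series of checkpoints. Ebf1 and Pax5 are the transcription factors that specify the lineage and commit cells to it. Ighm encodes the constant part of the immunoglobulin mu heavy chain, which first pairs with the surrogate light chain, made of Vpreb1 and Igll1, in the pre-B cell receptor and later with a true light chain in the B cell receptor. Vpreb3 is a related protein that binds the mu chain inside the precursor cell. Cd79a and Cd79b form the signalling heterodimer of both receptors, and Blnk is the adaptor that couples the receptor's kinases to downstream enzymes. MLL-AF9 leukemia is a myeloid disease, and Ighm transcription without a rearranged, productive gene is known from early progenitors as well as from B cells.

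The RefSeq promoter table (GRCm38.p6, 250 bases before to 50 after each start) held 7 of the 9 genes. The promoters of Cd79a (chr7:24897247-24897546, plus strand), Igll1 (chr16:16863936-16864235, minus strand) and Blnk (chr19:40994172-40994471, minus strand) are shown because these are the genes that stood high on single arrays below and whose window holds a searched motif. They read 5′ to 3′, with capitals marking a match to the EBF half-site pair in Cd79a and Igll1 and to the octamer in Blnk.
Cd79a: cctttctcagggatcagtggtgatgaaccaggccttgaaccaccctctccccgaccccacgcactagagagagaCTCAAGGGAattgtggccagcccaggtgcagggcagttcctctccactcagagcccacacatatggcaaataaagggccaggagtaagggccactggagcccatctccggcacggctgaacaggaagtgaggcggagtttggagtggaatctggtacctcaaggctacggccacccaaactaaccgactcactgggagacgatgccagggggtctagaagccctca
Igll1: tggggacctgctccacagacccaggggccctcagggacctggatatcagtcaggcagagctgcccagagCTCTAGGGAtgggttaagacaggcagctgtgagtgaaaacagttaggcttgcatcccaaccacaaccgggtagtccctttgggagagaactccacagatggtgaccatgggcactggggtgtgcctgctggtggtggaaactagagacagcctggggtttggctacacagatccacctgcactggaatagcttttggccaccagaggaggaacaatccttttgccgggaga
Blnk: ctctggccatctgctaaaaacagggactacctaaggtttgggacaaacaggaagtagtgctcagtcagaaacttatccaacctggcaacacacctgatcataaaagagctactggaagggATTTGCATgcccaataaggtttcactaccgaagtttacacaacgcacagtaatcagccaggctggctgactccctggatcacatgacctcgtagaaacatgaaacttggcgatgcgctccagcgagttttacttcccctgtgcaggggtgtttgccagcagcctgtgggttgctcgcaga
Both strands were searched for the EBF half-site pair (TCCCNNGGG or TCCCNNGAG), the octamer ATTTGCAT, which POU factors such as Oct2 bind, and E-boxes (CAGCTG or CAGGTG), which E2A binds. The EBF match starts at position -176 in Cd79a and at -181 in Igll1, counted from the start site, and 13.33% of all 32851 promoters hold such a match. The octamer starts at -130 in Blnk and at -45 in Vpreb3, and is in 1.735% of all promoters. E-boxes are in the promoters of Cd79a, Igll1, Vpreb1 and Blnk, and in 32.95% of all promoters. The motifs do not share bases in these windows. Igll1 and Vpreb1 are neighbours, with 0 annotated genes between them.

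The genotype labels were checked on Prkaa1, a catalytic AMPK subunit, whose log2 intensity was 7.31, 6.83 and 6.87 in KO L-GMP cells against 8.33, 7.99 and 8.12 in WT L-GMP cells. In whole leukemia cells it was 7.40, 7.45 and 6.95 in KO against 8.69, 7.72 and 8.32 in WT, so the KO arrays lay below the WT arrays in both populations; the labels do not say which subunit or part of the gene was deleted. A single array stood apart: KO whole leukemia 2 correlated at most 0.916 with any other array over the tested genes, while the other 11 arrays correlated at 0.914 or more among themselves. On that array the erythroid list averaged 9.31 against 4.99 to 6.05 on the other 11, the neutrophil list 11.67 against 6.06 to 10.16, and the T and NK list 5.69 against 4.87 to 5.26. Differences of the 9 genes that rest on it are given with and without it.

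Of the 9 genes, Ighm and Cd79b gave a signal clearly above dim probe sets on every array. As a gauge of dimness, the 1091 probe sets of olfactory receptor genes had array medians of 4.45 to 4.51, and their 95th percentile was 5.33 to 5.53. Ighm, Cd79b and Pax5 exceeded that percentile on all 12 arrays, Cd79a on 4, Igll1 and Blnk on 1 each, and Ebf1, Vpreb1 and Vpreb3 on 0. Pax5 exceeded it by as little as 0.006 log2 units, on WT whole leukemia 2, whereas Ighm and Cd79b stood at least 1.20 above it on each array. By array, between 46.4% and 51.1% of all genes exceeded it. Probe sets differ in brightness, so these counts do not rank the genes by their RNA. The mean of Ebf1 lay below the limit for tested genes (a mean log2 intensity of 4.72, under which the dimmest 25% of probe sets fall), which left 8 of the 9 genes tested among 17749.

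**Figure D1:**
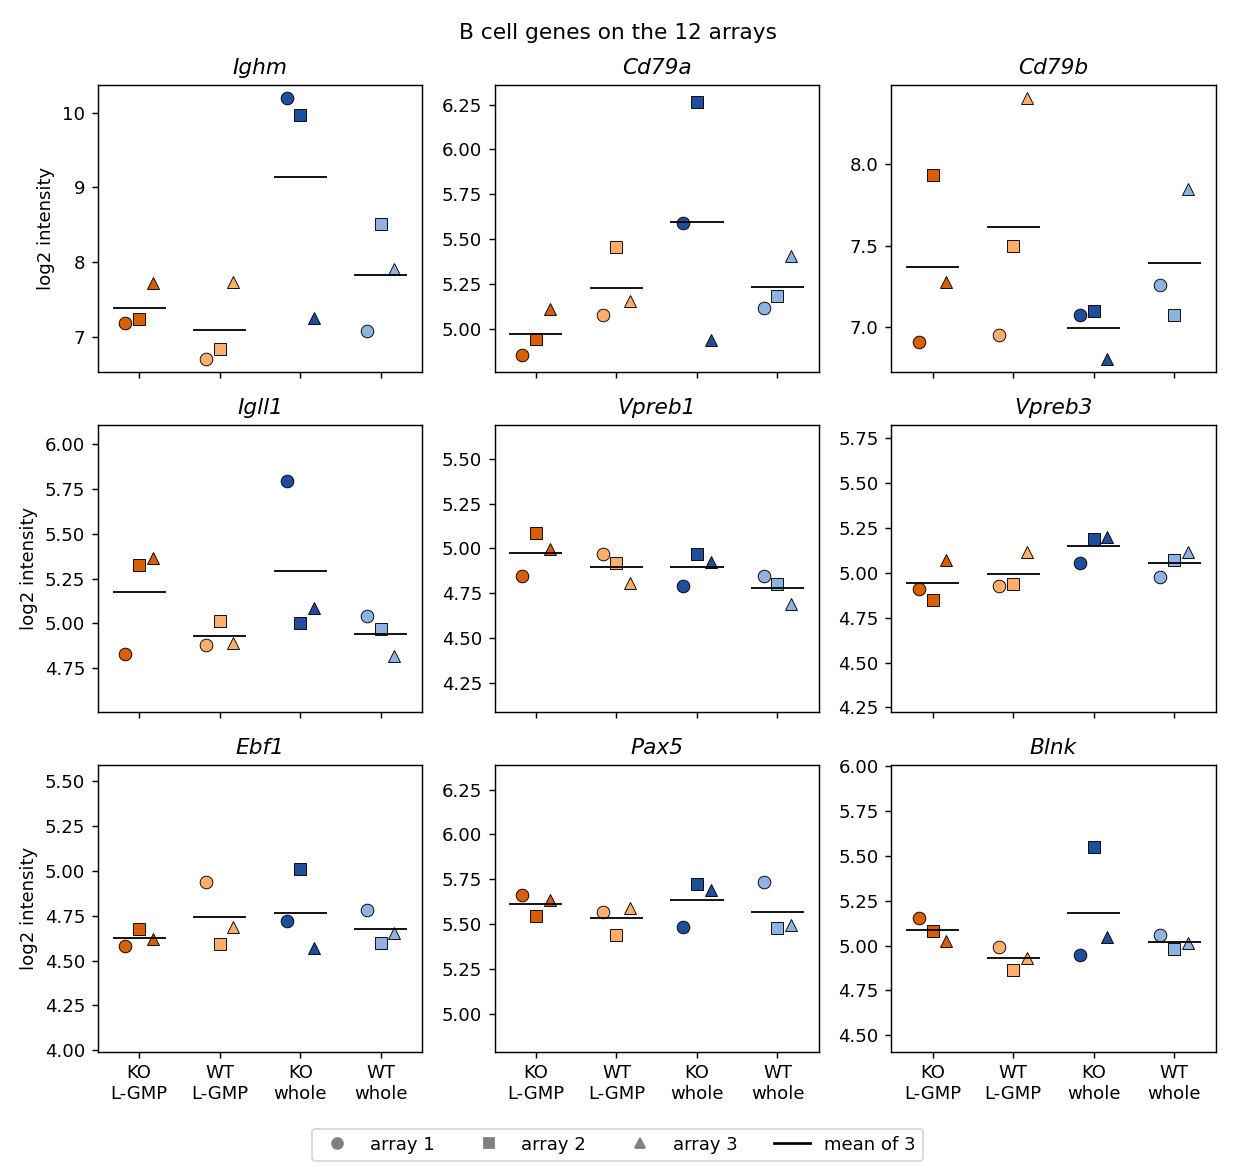
Log2 intensity (vertical axes, each with its own range) of the 9 genes on every array, by group along the horizontal axis; symbols give the array number and the line is the mean of 3. Ighm stands highest on KO whole leukemia 1 and 2, Cd79a, Ebf1 and Blnk on KO whole leukemia 2, and Igll1 on KO whole leukemia 1.

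Ighm spanned the widest range of the 9 genes. Its log2 intensity was 7.19, 7.24 and 7.72 in KO L-GMP cells, 6.71, 6.84 and 7.74 in WT L-GMP cells, 10.19, 9.96 and 7.26 in KO whole leukemia and 7.09, 8.51 and 7.91 in WT whole leukemia. KO whole leukemia 1 and 2 were the high arrays, the third KO whole leukemia array lay among the L-GMP values, and no pair of groups was separated. The group means were 7.38 ± 0.29 in KO L-GMP and 7.10 ± 0.56 in WT L-GMP cells, and 9.14 ± 1.63 in KO whole leukemia and 7.84 ± 0.71 in WT whole leukemia (SD, n = 3 each). In descending order, KO whole leukemia came first, then WT whole leukemia, KO L-GMP and WT L-GMP, and neighbours in that order overlapped.

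KO minus WT for Ighm in whole leukemia was 1.30 on the log2 scale (SE 0.68, 95% interval -0.21 to 2.82, limma adjusted p = 0.829). That difference was 0.78 without KO whole leukemia 1, 0.89 without KO whole leukemia 2 and 2.24 without KO whole leukemia 3, and none of these passed the test. In L-GMP cells KO minus WT was 0.29 (SE 0.68, 95% interval -1.22 to 1.80, limma adjusted p = 1.00). That SE pools the spread of all 4 groups, and without KO whole leukemia 3 it was 0.37. L-GMP minus whole leukemia was -1.75 in KO cells (SE 0.68, 95% interval -3.27 to -0.24, unadjusted p = 0.0270, limma adjusted p = 0.671). In WT cells it was -0.74 (SE 0.68, limma adjusted p = 1.00), and -0.40 without WT whole leukemia 2, and averaged over both genotypes it was -1.25 (SE 0.48, unadjusted p = 0.0264, limma adjusted p = 0.661). The KO difference was -1.23 without KO whole leukemia 1, -1.34 without KO whole leukemia 2 and -2.69 without KO whole leukemia 3. With the 7 probe sets of Ighm averaged instead, L-GMP minus whole leukemia was -0.64 in KO cells, -0.18 in WT cells and -0.41 over both genotypes, and KO minus WT in whole leukemia was 0.49. In bulk samples, fewer cells of a type and less RNA per cell cannot be told apart.

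The platform gives Ighm 7 probe sets of its own, of which 5 were bright enough to test, and 3 further sets that pair it with other symbols and were not used. The labels and tables do not place these sets within the heavy chain locus. Probe set 17284349 read 7.29, 7.72 and 6.56 in KO L-GMP cells, 5.87, 7.51 and 8.62 in WT L-GMP cells, 7.69, 9.25 and 6.99 in KO whole leukemia and 6.21, 7.56 and 7.65 in WT whole leukemia. It was highest on KO whole leukemia 2, and its next highest array was WT L-GMP 3. Probe set 17284605 was 5.57, 5.49 and 5.91 in KO L-GMP cells, 5.69, 5.35 and 5.78 in WT L-GMP cells, 8.23, 6.78 and 5.65 in KO whole leukemia and 5.37, 7.04 and 6.01 in WT whole leukemia. It followed the main set (17284360) closely, with a Pearson r of 0.91 over the 12 arrays, against 0.61 for 17284349; both values are descriptions of sets that share arrays. The other sets tested, 17284507 and 17284648, spanned 0.70 and 0.54 log2 units.

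The sets disagreed in sign on some contrasts. L-GMP minus whole leukemia in WT cells was -0.74 on the main set, -0.53 on 17284605 and -0.29 on 17284507, but 0.19 on 17284349 and 0.14 on 17284648. In KO cells the same difference was -1.75 on the main set, -1.23 on 17284605 and -0.79 on 17284349. It was smaller on the other sets, -0.12 on 17284507 and -0.24 on 17284648. KO minus WT in whole leukemia was 1.30, 0.74 and 0.84 on the main set, 17284605 and 17284349. Their limma adjusted p were 0.829, 0.875 and 0.889. On 17284507 and 17284648 that difference was 0.13 and 0.14. In L-GMP cells KO minus WT was 0.29 on the main set, 0.05 on 17284605 and 0.29 on 17284507 (unadjusted p = 0.0469), but -0.15 on 17284349 and -0.24 on 17284648 (unadjusted p = 0.0464), each with a limma adjusted p of 1.00. The interaction was 0.17 on 17284507 and below 0 on the other 4 sets. On 17284648 it was -0.38 (limma unadjusted p = 0.0302), which did not pass after adjustment.

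**Figure D2:**
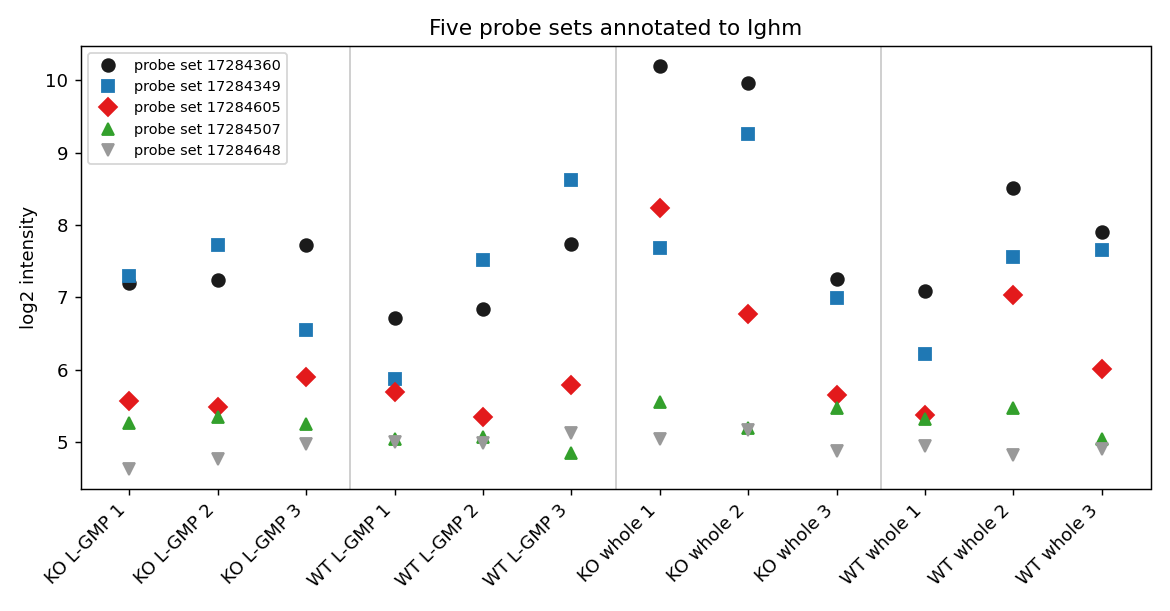
Log2 intensity (vertical axis) of the 5 tested Ighm probe sets on each of the 12 arrays (horizontal axis), 1 symbol per set. The main set and 17284605 both peak on KO whole leukemia 1, whereas 17284349 peaks on KO whole leukemia 2 and has its next highest value on WT L-GMP 3.

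Variable and other constant immunoglobulin genes were then looked up by symbol, after the Ighm values were known, so they are described without a test. Of 19 such genes with a probe set of their own, 12 had their highest value on a whole leukemia array and 7 on an L-GMP array, against 49.0% of all genes on a whole leukemia array. The 7 were among the 11 genes that spanned 1 log2 unit or less. The other 8 spanned more, against 23.6% of all genes, and a span this wide can come from a single high array. All 8 had their highest value on a whole leukemia array: 3 on KO whole leukemia 1, 1 on KO whole leukemia 2, 3 on WT whole leukemia 2 and 1 on WT whole leukemia 3. Of all genes that span more than 1 log2 unit, 47.6% were highest on a whole leukemia array. Igkv9-120, a kappa light chain variable gene, was 7.99 on KO whole leukemia 1 and 4.22 to 4.43 on the other 11 arrays. Igkv4-59, another kappa variable gene, was 6.37 on WT whole leukemia 2 and 4.26 to 4.39 elsewhere. A gap of 2 log2 units or more between the highest and the next array was seen in 101 of all genes (0.455%), Igkv9-120 included.

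Other variable genes were shared by a few arrays. Igkv5-43 was 9.19 on KO whole leukemia 1, 8.46 on KO whole leukemia 2 and 8.94 on WT whole leukemia 2, against 7.01 to 7.71 on the other arrays. Igkv4-72 was 5.61 on KO whole leukemia 2 and 6.16 on WT whole leukemia 2. Igkv4-70 was 5.47 on KO whole leukemia 2 and 5.50 on WT whole leukemia 2. The same pair of arrays therefore stood high for both genes, one array from each genotype. Ighg3, the constant region of an IgG subclass, was 6.39 on WT whole leukemia 3 and at most 5.37 elsewhere. An L-GMP array came close to the highest for Igkv15-103, which was 7.01 on KO whole leukemia 2 and 6.86 on WT L-GMP 1. Igkv4-91 was 6.30 on KO whole leukemia 1, 5.90 on KO whole leukemia 2 and 5.87 on WT L-GMP 1.

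**Figure D3:**
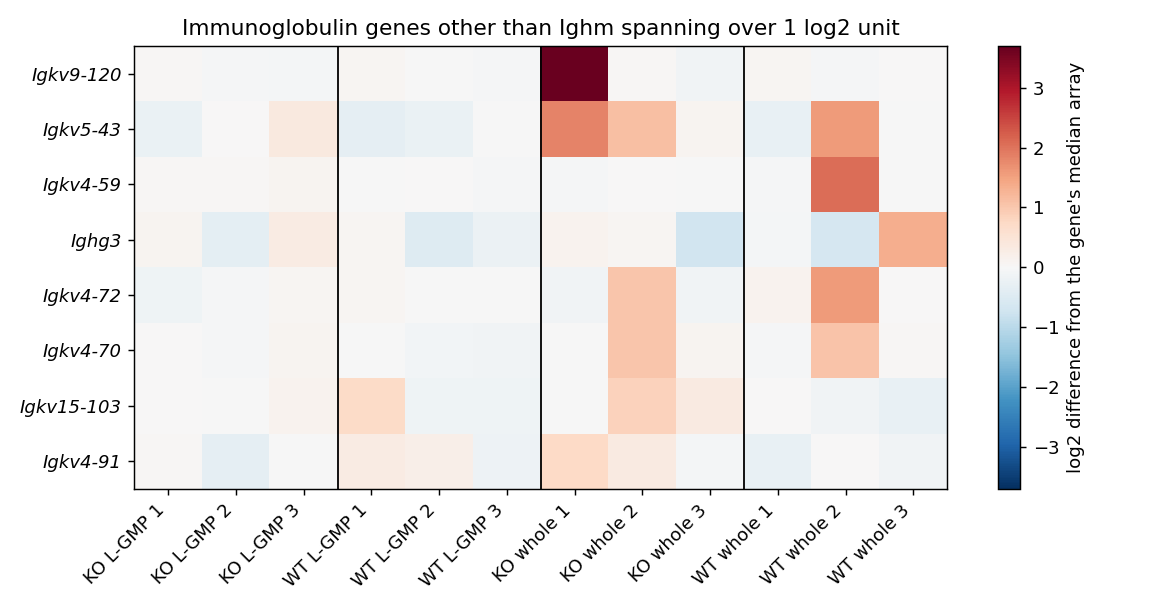
Colour gives the log2 difference of each array (horizontal axis) from the gene's median array, for the 8 immunoglobulin genes other than Ighm that span over 1 log2 unit (rows). The strongest cell is Igkv9-120 on KO whole leukemia 1, and the deepest red cells of all 8 rows lie in the whole leukemia columns.

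The paired signalling chains did not follow each other. Cd79a was 4.86, 4.94 and 5.11 in KO L-GMP cells, 5.08, 5.45 and 5.15 in WT L-GMP cells, 5.59, 6.26 and 4.94 in KO whole leukemia and 5.11, 5.18 and 5.40 in WT whole leukemia. Its highest arrays were KO whole leukemia 2 and 1, the pair that was high for Ighm. KO minus WT for Cd79a in whole leukemia was 0.36 (SE 0.27, limma adjusted p = 0.869), and 0.03 without KO whole leukemia 2. L-GMP minus whole leukemia in KO cells was -0.63 (SE 0.27, unadjusted p = 0.0394, limma adjusted p = 0.674), and -0.29 without that array. In WT cells the same difference was -0.01 (SE 0.27, limma adjusted p = 1.00).

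Cd79b was 6.91, 7.93 and 7.28 in KO L-GMP cells, 6.95, 7.49 and 8.40 in WT L-GMP cells, 7.08, 7.10 and 6.80 in KO whole leukemia and 7.26, 7.07 and 7.85 in WT whole leukemia. WT L-GMP 3 was its highest array, and KO whole leukemia 1 and 2 lay among its lower values. KO minus WT was -0.24 in L-GMP cells (SE 0.36, limma adjusted p = 1.00) and -0.40 in whole leukemia (SE 0.36, limma adjusted p = 0.892). L-GMP minus whole leukemia was 0.38 in KO cells (SE 0.36), and 0.10 without KO L-GMP 2, and in WT cells it was 0.22 (SE 0.36). The L-GMP difference between genotypes changed sign, to 0.15, when WT L-GMP 3 was left out.

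Among the genes of the surrogate light chain, 1 array stood out. Igll1 was 4.83, 5.33 and 5.36 in KO L-GMP cells, 4.88, 5.01 and 4.89 in WT L-GMP cells, 5.79, 5.001 and 5.09 in KO whole leukemia and 5.04, 4.97 and 4.82 in WT whole leukemia. KO whole leukemia 1 was the only array on which Igll1 passed the olfactory receptor percentile. KO minus WT was 0.24 in L-GMP cells (SE 0.21) and 0.35 in whole leukemia (SE 0.21, limma adjusted p = 0.843), and the whole leukemia difference was 0.10 without KO whole leukemia 1. Vpreb1, the neighbour of Igll1 and its partner in the surrogate light chain, ranged from 4.69 to 5.09 over the 12 arrays and was 4.79 on KO whole leukemia 1. Vpreb3 ranged from 4.85 to 5.20. L-GMP minus whole leukemia for Vpreb3 was -0.20 in KO cells (SE 0.09, limma adjusted p = 0.674) and -0.06 in WT cells (SE 0.09).

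The transcription factors and the adaptor lay near the olfactory receptor percentile or below it, and each spanned under 1 log2 unit. At such levels a narrow span does not show steady expression. Pax5 ranged from 5.44 to 5.74, and KO minus WT was 0.08 in L-GMP cells and 0.06 in whole leukemia (SE 0.10 each). Ebf1 ranged from 4.57 to 5.01, highest on KO whole leukemia 2, and was too dim to test. Blnk was 5.16, 5.08 and 5.02 in KO L-GMP cells against 4.99, 4.87 and 4.93 in WT L-GMP cells, which do not overlap. That difference was 0.16 (SE 0.14, limma adjusted p = 1.00). In whole leukemia Blnk was 4.95, 5.55 and 5.05 in KO cells against 5.06, 4.98 and 5.02 in WT cells, and KO minus WT was 0.16 (SE 0.14, limma adjusted p = 0.887) and -0.02 without KO whole leukemia 2.

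None of the 8 tested genes was called in any comparison at a limma adjusted p under 0.05. Few other genes were: KO against WT in L-GMP cells called 1 of 17749 (0.00563%), and every other comparison called 0 (0%), namely KO against WT in whole leukemia, the 3 contrasts of L-GMP with whole leukemia (in KO, in WT and averaged), and the interaction of genotype with population. At an unadjusted p under 0.05, 0 of the 8 B cell genes passed for KO against WT in L-GMP cells (4.13% of all genes) and 0 in whole leukemia (5.97%). Between the cell populations, 2 passed in KO cells, Ighm and Cd79a (7.39% of all genes), 0 in WT cells (2.5%) and 1 averaged over both genotypes, Ighm (7.52%). The interaction passed 0 (2.06%), and for Ighm it was -1.02 (SE 0.96, limma adjusted p = 1.00), with -0.49 without KO whole leukemia 1 and -1.96 without KO whole leukemia 3.

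Separation of the arrays was close to the background. Blnk in L-GMP cells was the 1 of 8 genes whose KO and WT arrays did not overlap, against 9.48% of all genes, and 0 of 8 were separated for KO against WT in whole leukemia (11.2%). For L-GMP against whole leukemia 0 of 8 were separated in KO cells (10.2%), in WT cells (10.3%) and over both genotypes (0.355%). WT arrays of the same number were taken as pairs because their deviations correlated, though the labels do not state a pairing. Within those pairs 4 of 8 genes differed in 1 direction in all 3, against 31.1% of all genes. The differences within pairs 1, 2 and 3 were -0.38, -1.67 and -0.16 for Ighm, and 0.12, 0.12 and 0.11 for Vpreb1. They were also below 0 in each pair for Blnk (-0.07, -0.11 and -0.08) and for Vpreb3, where the third difference was -0.00024. KO minus WT was above 0 for 5 of the 8 genes in L-GMP cells, with a median of 0.08 against 0.02 over all genes. In whole leukemia it was above 0 for 7 of 8, with a median of 0.14 against 0.00 over all genes, and without KO whole leukemia 2 for 6 of 8, with a median of 0.05 against 0.01. L-GMP minus whole leukemia was below 0 for 6 of 8 in KO cells, with a median of -0.11 against 0.01 over all genes, and for 4 of 8 without KO whole leukemia 2, with a median of -0.08. It was below 0 for 6 of 8 in WT cells, with a median of -0.03 against 0.00.

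**Figure D4:**
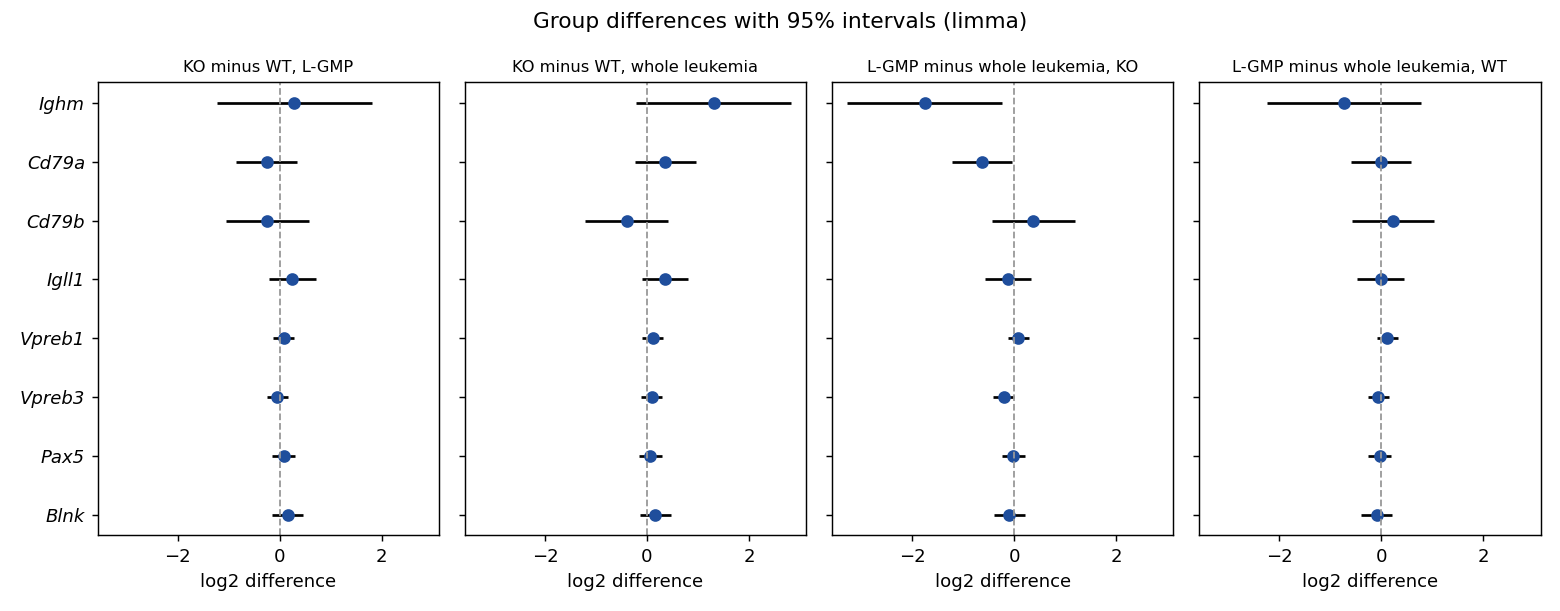
Log2 differences between group means (horizontal axis) with 95% intervals from limma for the 8 tested genes (rows) in 4 comparisons (panels). The intervals of Ighm and Cd79a for L-GMP minus whole leukemia in KO cells leave out 0 before adjustment over all genes, and every other interval shown includes 0.

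Wider lists of B lineage genes gave no call either: 0 members of the B progenitor, B lineage transcription factor, B cell receptor signalling, mature B cell and plasma cell lists passed in any comparison. For KO minus WT in whole leukemia, 4 of 6 progenitor genes, 4 of 11 transcription factors, 3 of 11 signalling genes, 6 of 7 mature B cell genes and 3 of 6 plasma cell genes were above 0. Without KO whole leukemia 2 it was 1 progenitor gene, 3 transcription factors, 2 signalling genes, 5 mature B cell genes and 3 plasma cell genes. The gene of lowest p differed in direction between lists. In the progenitor list it was Erg, a transcription factor of stem cells and early progenitors, at -0.99 (SE 0.29, limma adjusted p = 0.740), followed by Cd24a, which many blood cell types share, at 2.33 (SE 0.89, limma adjusted p = 0.827). Irf8, a transcription factor of B cells, monocytes and dendritic cells, was -1.63 (limma adjusted p = 0.829), and Plcg2, a phospholipase of receptor signalling, was -0.32 (limma adjusted p = 0.827). Bank1, a B cell scaffold protein, was 0.42 (SE 0.19, limma adjusted p = 0.829), and Prdm1, the plasma cell factor Blimp-1, was 0.06 (limma adjusted p = 0.956).

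For L-GMP minus whole leukemia in KO cells, 2 of 6 progenitor genes, 3 of 11 transcription factors, 7 of 11 signalling genes, 3 of 7 mature B cell genes and 1 of 6 plasma cell genes were above 0, and without KO whole leukemia 2 it was 4 progenitor genes, 6 transcription factors, 5 signalling genes, 2 mature B cell genes and 0 plasma cell genes. The progenitor genes of lowest p were Erg at 0.75 (limma adjusted p = 0.671), Bst1, a surface enzyme of B progenitors and myeloid cells, at -1.25 and Sox4, a transcription factor of early progenitors, at 1.37 (limma adjusted p = 0.674 each). Bst1 was -0.56 without KO whole leukemia 2. Tcf3, which encodes E2A, was 0.46 (limma adjusted p = 0.674), Plcg2 was 0.25 (limma adjusted p = 0.694) and Bank1 was -0.52 (limma adjusted p = 0.671). Jchain, the joining chain of secreted IgM and IgA, was -0.50 (limma adjusted p = 0.699), and -0.11 without KO whole leukemia 2. Averaged over both genotypes Jchain was -0.48 (SE 0.20, limma adjusted p = 0.661), and -0.28 without that array. Ms4a1, which encodes the B cell antigen CD20, read 4.34 to 4.69 on all 12 arrays and was too dim to test. The recombinase gene Rag2 read 4.47 to 4.96 and Dntt, the template-independent polymerase of joining, 4.60 to 4.78. Rag1, Ighd and Igkc were not analysed here.

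The KO whole leukemia arrays with high Ighm differed in what else was high. On KO whole leukemia 2, Ly6d, a marker of early B cell progenitors, was 7.01 against 5.58 to 5.96 on the other 11 arrays. Pou2af1, a coactivator of octamer-binding factors, was 6.04 against 4.81 to 5.38, and Jchain was 5.84 against 4.46 to 5.26. Fcmr, the IgM receptor, was 5.52 against 4.87 to 5.12, and Cd22, an inhibitory receptor of B cells, was 5.52 against 4.93 to 5.31. Fcmr and Cd22 exceeded the olfactory receptor percentile (5.53 on this array) on 0 arrays. Pou2af1 and Jchain exceeded it on KO whole leukemia 2 only, and Ly6d on all 12 arrays. These genes were picked after their values were seen. Over the 40 tested genes of the 5 other B lineage lists, KO whole leukemia 2 was the highest array for 12 and the lowest for 6, against 16.1% highest and 20.3% lowest over all genes. The signalling list had 2 genes highest and 4 lowest there. Ly6d also belongs to the list of plasmacytoid dendritic cell markers, of which 3 of 7 tested were highest there and 0 lowest. Siglech of that list was 6.24 there against 5.22 to 5.70 on the other 11 arrays. On the same array Cd3d, a chain of the T cell receptor complex, was 8.50 against 4.71 to 5.84, and Rhag, an erythroid membrane protein, was 10.12 against 4.76 to 5.96. KO whole leukemia 2 was the highest array for 3 of the 9 genes (Cd79a, Ebf1 and Blnk) and the lowest array for 0 of the 8 tested.

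KO whole leukemia 1 lacked the high erythroid and T and NK values. It was the highest array for Ighm and Igll1 and for 5.56% of all tested genes, its erythroid list averaged 5.15 and its T and NK list 4.95, both inside the range of the other arrays. Its Ly6d was 5.63, its Pou2af1 4.97 and its Jchain 4.74, genes picked for their height on KO whole leukemia 2. Bank1 was highest on KO whole leukemia 1, at 6.56 against 5.47 to 6.16 on the other 11 arrays. By list, KO whole leukemia 1 was highest for 1 of 9 progenitor, 1 of 10 mature B cell and 2 of 6 plasma cell genes. It was highest for 0 of 12 transcription factors and 0 of 11 signalling genes. These counts include genes too dim to test. The progenitor gene was Dntt (4.78) and the plasma cell genes were Sdc1 (5.22) and Tnfrsf17 (4.89). Each of them exceeded the olfactory receptor percentile on 0 arrays. Summed over the 9 genes, linear intensity ranged from 493 to 635 in KO L-GMP, 463 to 786 in WT L-GMP, 505 to 1573 in KO whole leukemia and 531 to 729 in WT whole leukemia. The high end in KO whole leukemia was array 1, of which Ighm made up 74.5%, and array 2 summed to 1445, of which Ighm made up 69.1%. Without Ighm, the other 8 genes summed to 401 and 446 on those arrays, inside the range of 347 to 571 on the 12 arrays. The erythroid sum over 7 genes was 260 to 529 in KO L-GMP, 244 to 268 in WT L-GMP, 256 to 8458 in KO whole leukemia and 233 to 267 in WT whole leukemia. The T and NK sum over 8 genes was 255 to 287 in KO L-GMP, 239 to 273 in WT L-GMP, 255 to 655 in KO whole leukemia and 254 to 268 in WT whole leukemia. The neutrophil sum over 8 genes was 3374 to 7185 in KO L-GMP, 793 to 9267 in WT L-GMP, 10145 to 30051 in KO whole leukemia and 3622 to 17791 in WT whole leukemia. The part of these other cell types in the B cell gene values was not tested.

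**Figure D5:**
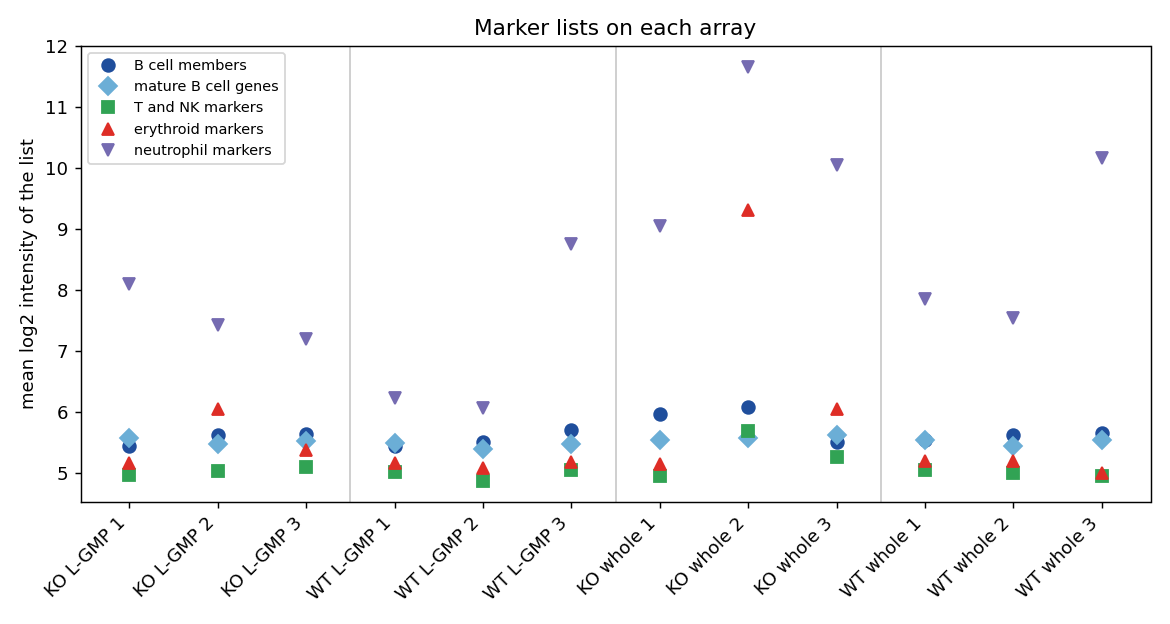
Mean log2 intensity (vertical axis) of 5 gene lists on each array (horizontal axis). KO whole leukemia 2 carries the highest erythroid (9.31), neutrophil (11.67) and T and NK (5.69) means, whereas on KO whole leukemia 1 the erythroid (5.15) and T and NK (4.95) means lie among those of the other arrays.

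The tested genes that varied most like Ighm over the 12 arrays were Slitrk1 (Pearson r 0.892), Igkv5-43 (0.892) and Olfr411 (0.872), with 1 gene that has only a clone name left unnamed. Slitrk1 itself spanned only 4.60 to 4.92, and Olfr411, an olfactory receptor gene, only 4.58 to 5.04. Both lay below the olfactory receptor percentile (5.33 to 5.53) on every array, so their r rests on dim signals. The genes most like Cd79a were Ppp2r5b (0.906), Rnf123 (0.890) and Uros (0.889), each highest on KO whole leukemia 2, and without that array r was 0.69, 0.65 and 0.60. Those most like Cd79b were Wdsub1 (0.916), Zfp760 (0.888) and Map7d3 (0.883). The other genes spanned under 1 log2 unit and were not ranked. Among the 9 genes themselves, 19 of 36 pairs had an r above 0, with a median r of 0.11, and without KO whole leukemia 2 it was 17 of 36 with a median of -0.03. All these r compare genes read on the same arrays and carry no test.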

How the data were processed

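RNA from 5000 sorted cells per array was amplified and biotin-labelled with NuGEN kits, per the labels' protocols. The authors deposited 1 linear intensity for each of 33794 probe sets and each array (18.0 to 9108, array medians 36.9 to 39.3). How the background was corrected and how arrays were normalized is not given in the sources used here, so their effect on dim genes is unknown, and the number of arrays limits the precision. The deposited intensity values were taken to log2 with no pseudocount.

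The platform annotation gave 1 symbol to 23521 probe sets, several to 1814, and does not list 8459. Of its gene identifiers, 99.2% were found in RefSeq (GRCm38.p6). Each gene took its brightest single-symbol probe set by mean, and genes with a mean under 4.72, a limit below which 25% of probe sets lie, were not tested (4431 of 22180).

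Tests used lmFit and eBayes of limma 3.58.1 under R 4.3.3 (1 mean per group, 12 arrays, statmod 1.5.0 for blocks), with Benjamini-Hochberg adjustment over 17749 genes, and the fit was tested on simulated data. All 9 genes are named; of other lists, genes of lowest p (at most 3 per list and comparison), and for genes spanning over 1 log2 unit the 3 most like genes. The genes and lists were chosen with earlier results of these data known. Alternatives covered probe set choice, dim filter, scaling, offset, limma settings, replicate blocks and leaving out each array.

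Replicate numbers are shared between groups. Deviations of same-numbered L-GMP and whole leukemia arrays correlated at 0.13, 0.09 and 0.43 in KO and 0.36, 0.62 and 0.30 in WT. By a limit of 0.1 for every pair, WT numbers were taken as pairs and KO numbers, with a value of 0.09, were not. The main fit nevertheless held no block for pairs, and blocked values are given below as an alternative. The labels do not state a pairing. KO with WT arrays of 1 number gave -0.01, 0.19 and 0.00 in L-GMP cells and 0.03, -0.10 and 0.06 in whole leukemia, so these share only a number.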

Additional observations from a re-analysis of the deposited data

How the results depend on the processing

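No B cell gene was called by limma under any setting run. Among the 36 differences followed through the settings, the lowest adjusted p was 0.290 (Vpreb3, L-GMP minus whole leukemia in KO cells, without KO whole leukemia 1). Of 728 recomputed differences (36 differences, 19 to 21 settings each), 714 kept their direction and 14 changed sign, and none crossed the threshold. Among these was the untested Ebf1, at -0.031 for KO minus WT in whole leukemia without KO whole leukemia 2. With another setting, Ighm for KO minus WT in L-GMP cells was -0.11 and the Cd79b interaction -0.38 (array weights), and Cd79a for L-GMP minus whole leukemia in WT cells was 0.0075 (quantile scaling); for Ighm, array weights also gave 0.35 for KO minus WT in whole leukemia and -0.96 for L-GMP minus whole leukemia in KO cells. Leaving out 1 array at a time, the Cd79b interaction ran from -0.18 to 0.55, Cd79a for L-GMP minus whole leukemia in WT cells from -0.12 to 0.080, and Cd79b for the same contrast from -0.17 to 0.56. For KO minus WT, Cd79b in L-GMP cells ran from -0.58 to 0.15, Vpreb3 in L-GMP cells from -0.11 to 0.011 and Blnk in whole leukemia from -0.021 to 0.28. Genes called for KO against WT in L-GMP cells numbered 1, and were 2 with all probe sets averaged, 0 with no dim filter, 2 with trend and robust settings, 4 with array weights and 0 with only the compared groups. For L-GMP against whole leukemia in KO cells, where 0 were called, it was 1 with the dimmest 50% left out, 2 with an offset of 16 and 1 with trend and robust settings, and over both genotypes 1 with the last. Leaving out 1 array gave 0 to 2 calls for KO against WT in L-GMP cells, 0 to 1 in whole leukemia, 0 to 40 for L-GMP against whole leukemia in KO cells and 0 to 9 over both genotypes, with 40 and 9 both reached without KO whole leukemia 1. The causes were not tested.

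With the replicate number as a block, KO against WT in L-GMP cells called 0 genes, and the block changed no call of a B cell gene. Ighm for KO minus WT in whole leukemia stayed at 1.30 (limma adjusted p = 0.801). In WT cells, whose numbers were taken as pairs, L-GMP minus whole leukemia stayed at -0.74 for Ighm (SE 0.66) and 0.12 for Vpreb1 (SE 0.08). The limma adjusted p was 0.998 for both. In KO cells, whose numbers were not taken as pairs, Ighm for the same contrast stayed at -1.75 (limma adjusted p = 0.528).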

Other observations

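Probe sets whose symbols are all immunoglobulin genes but number more than 1 were kept out of the report, since they cannot be tied to a single gene. There were 5 of them, and all 5 spanned more than 1 log2 unit. Their highest array was KO whole leukemia 1 for 1 set and KO whole leukemia 2 for the other 4, and an L-GMP array for 0. Of all tested genes, 5.56% were highest on KO whole leukemia 1 and 16.1% on KO whole leukemia 2, the array that stood apart. The 5 sets are described with no test, since they were looked up after the Ighm values were known.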
